A study of Mus musculus with 6 samples.

Results

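The genes described here are effectors of Notch signaling and the fringe enzymes that modify its receptors: *Hes1*, *Hes5*, *Hes6*, *Hey1*, *Hey2*, *Heyl*, *Nrarp*, *Lfng*, *Mfng* and *Rfng*. They were chosen by gene symbol, 10 of the 24421 symbols counted, and all 10 had enough counts to be tested. RNA was sequenced from wild-type mouse cochlear explants taken at postnatal day 2, with 3 control and 3 neomycin samples, each pooled from 6 to 8 cochleae. Neomycin, an aminoglycoside toxic to hair cells (HCs), was given at 1 mM for 6 h after 12 h in culture, and culture went on for 5 days with 10 μM EdU, a label of dividing cells. The treatment labels separate the groups, while the growth text of the control samples describes the same neomycin exposure; explants labelled as control are read here as not exposed. The design text of the series names a different material, C3H10T1/2 cells and knockdowns, which no sample label mentions, and the sample labels were followed. The stria vascularis anlage, modiolus and tectorial membrane had been removed, and RNA came from all remaining cells, so that fewer cells of one type and less RNA per cell cannot be told apart in any value below. The sources do not say whether replicates were separate litters or cultures. The p-values therefore set group differences against the spread between these samples, which may be technical.

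When a Notch receptor is bound by a ligand on a neighboring cell, its intracellular part is released, enters the nucleus and joins the DNA-binding protein RBPJ to switch on target genes. In the organ of Corti, HCs carry some of the ligands. The surrounding supporting cells (SCs) answer with repressors of the Hes and Hey families, which keep the HC factor *Atoh1* off. *Nrarp* is a target that limits the released receptor in turn, and the fringes add a sugar to the receptor that changes how it responds to Delta and Jagged ligands.

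The promoter bases of *Hes5*, *Hey2*, *Lfng* and *Nrarp* are shown because RBPJ acts on such regions and because *Lfng* and *Nrarp* changed after neomycin while *Hes5* and *Hey2* did not pass the test. The sequences are the 250 bases before the RefSeq start of transcription on build GRCm38.p6, read 5′ to 3′ on the strand of the gene: chr4:154960673-154960922 (+), chr10:30842784-30843033 (-), chr5:140607091-140607340 (+) and chr2:25180508-25180757 (+). Capitals mark the core letters bound by RBPJ, GTGGGAA or the reverse complement TTCCCAC, in *Hes5*, *Hey2* and *Lfng*, and an E box, CACGTG, in *Nrarp*.
Hes5: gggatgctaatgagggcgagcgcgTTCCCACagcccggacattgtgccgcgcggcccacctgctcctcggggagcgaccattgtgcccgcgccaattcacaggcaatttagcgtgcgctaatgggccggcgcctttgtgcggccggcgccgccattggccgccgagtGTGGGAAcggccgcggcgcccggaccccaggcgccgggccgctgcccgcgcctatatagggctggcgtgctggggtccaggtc
Hey2: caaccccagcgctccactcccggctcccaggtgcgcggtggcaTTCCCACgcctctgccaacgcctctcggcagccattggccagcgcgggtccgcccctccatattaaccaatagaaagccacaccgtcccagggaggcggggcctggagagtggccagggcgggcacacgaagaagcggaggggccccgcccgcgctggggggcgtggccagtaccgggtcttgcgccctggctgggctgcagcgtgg
Lfng: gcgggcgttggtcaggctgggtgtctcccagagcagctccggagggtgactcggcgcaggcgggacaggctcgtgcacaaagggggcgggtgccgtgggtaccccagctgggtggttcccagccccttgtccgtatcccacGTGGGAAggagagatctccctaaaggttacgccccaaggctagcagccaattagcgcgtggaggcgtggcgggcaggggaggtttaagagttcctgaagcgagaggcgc
Nrarp: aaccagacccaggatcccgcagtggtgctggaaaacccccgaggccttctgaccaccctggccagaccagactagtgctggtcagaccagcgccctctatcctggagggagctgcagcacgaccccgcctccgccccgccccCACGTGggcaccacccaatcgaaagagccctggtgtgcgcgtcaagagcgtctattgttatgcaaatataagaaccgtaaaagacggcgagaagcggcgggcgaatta

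The *Hes5* stretch held the RBPJ core 226 and 83 bases before the start, in opposite orientations. *Lfng* held it once, 109 bases before the start, where it overlaps an E box that begins at 112. *Hey2* held it 207 bases before the start, and a further copy lay across the start itself. In 250 upstream bases, searched on both strands, 5.42% of 32851 RefSeq promoters held GTGGGAA, 6.02% held CACGTG and 36.7% held the N box, CACNAG. Promoter windows were matched for *Hes5*, *Hes6*, *Hey2*, *Nrarp*, *Lfng* and *Rfng*, and not for *Hes1*, *Hey1*, *Heyl* and *Mfng*. In the same 250 upstream bases *Hes6*, which had 2 windows, *Nrarp* and *Rfng* held no RBPJ core. *Nrarp* held 2 N boxes. *Lfng*, *Rfng* and 1 of the *Hes6* windows held 1 each, and *Hes5* and *Hey2* held none. These matches are descriptions of letters, not of binding.

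The samples had between 50471116 and 66068108 counts, and the 10 genes together made up 315.2 to 351.4 CPM (counts normalised to library size, with TMM scaling) in control and 288.5 to 325.4 CPM after neomycin. No sample repeated another, since pairs within a group had a mean chi-square per gene of 13.7 to 46.7. HC markers were present in control explants and 13 of 14 fell after neomycin. SC markers were present in both groups, 4 of 14 falling and 5 rising.

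Of the 10 genes, *Nrarp*, *Lfng* and *Mfng* fell after neomycin and *Hes6* rose, while the 5 other Hes and Hey genes and *Rfng* did not pass the test. The falls were of 22% to 29% and the rise was of 28.6%. Thus 4 of the 10 passed an adjusted p of 0.05 (quasi-likelihood test of edgeR, corrected for every gene in the fit), against 29.0% of the 15988 genes tested. By direction, 3 were lower against a background of 16.1% and 1 was higher against 12.9%. None passed a fold change over 1.5 as well, where 6.60% of all genes were lower and 2.24% higher by that rule. No gene of the 10 changed by that much in this fit, so the count was 0 whatever the p threshold. It was 0 also by DESeq2 and by limma-voom, and 1 (*Mfng*) with a correction for exon length. The median log2 fold change of the 10 was -0.13, beside -0.004 over all genes tested. Without neomycin replicate 2, 2 of the 10 passed.

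**Figure D1:**
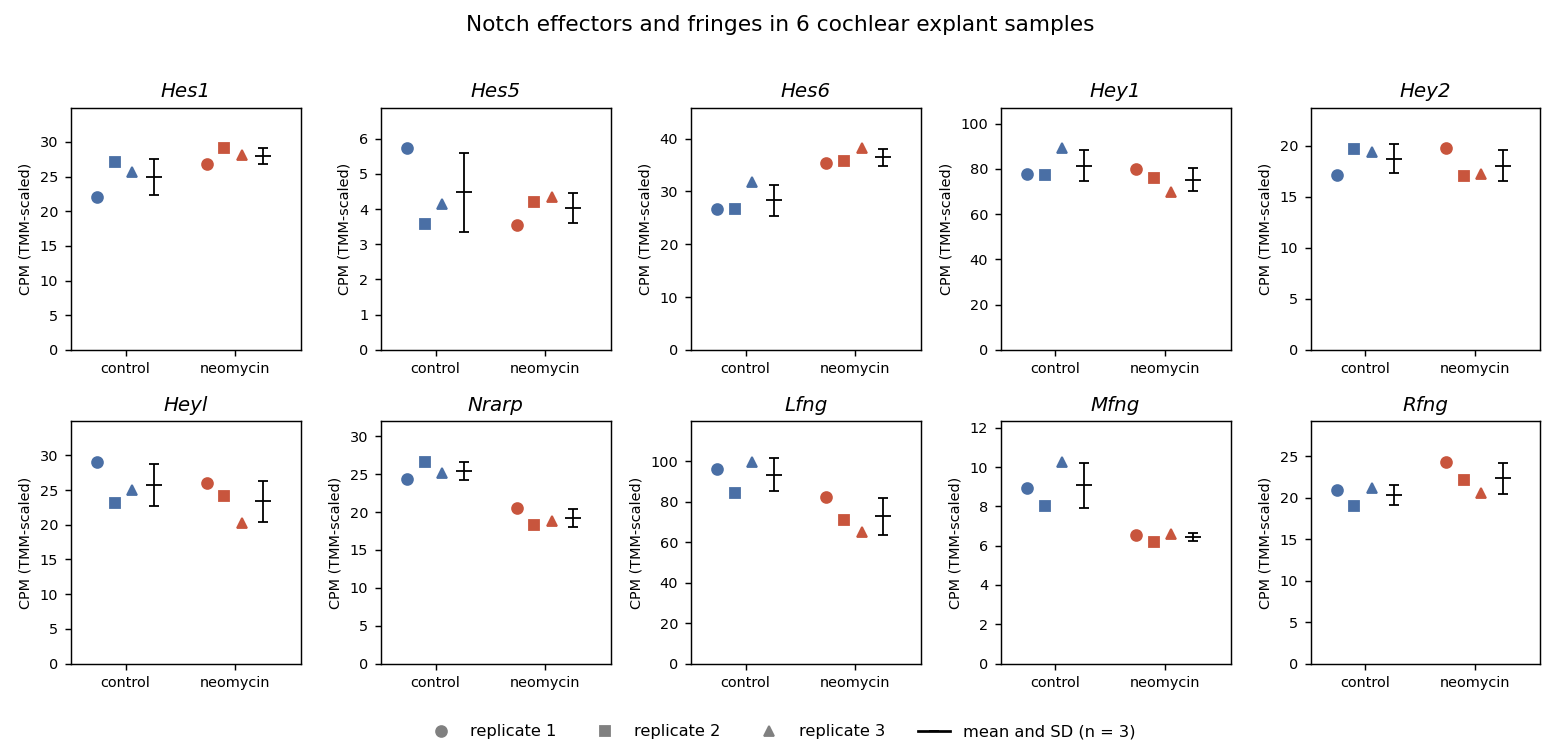
Level of each gene in each sample in CPM, with axes from 0; symbols give replicates and the bar the mean and SD of 3 samples. The control and neomycin samples do not overlap for *Hes6*, *Nrarp*, *Lfng* and *Mfng*, 4 of the 10, beside 43.5% of all genes tested.

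**Figure D2:**
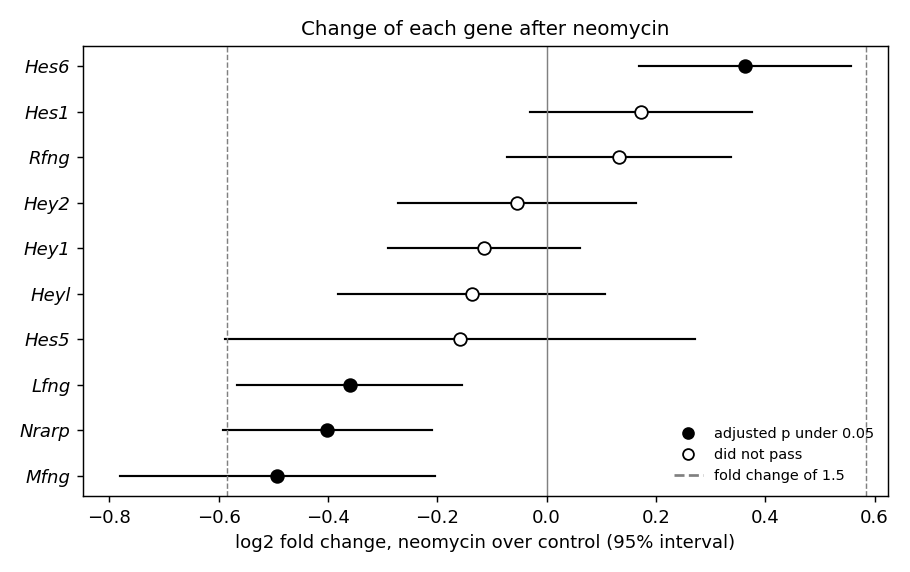
The log2 fold change of each gene after neomycin with its 95% interval; filled points had an adjusted p-value under 0.05 and dashed lines mark a fold change of 1.5. *Mfng* is lowest at -0.49 and *Hes6* highest at 0.36, and every point lies within the dashed lines.

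Levels were compared between genes as RPKM, the CPM divided by kilobases of exon. In control explants *Lfng* was highest at 37.3 ± 3.26 RPKM (SD, n = 3), followed by *Hey1* at 24.9 ± 2.08, *Hes6* at 15.7 ± 1.63 and *Hes1* at 12.2 ± 1.27. *Nrarp* had 9.82 ± 0.456 RPKM and *Rfng* 8.17 ± 0.475, and the 4 lowest, *Heyl*, *Hey2*, *Hes5* and *Mfng*, lay between 3.19 and 5.03. Neighbors in this order did not share values across the control samples except at the low end, where *Hey2* overlapped *Hes5* and *Hes5* overlapped *Mfng*. After neomycin *Rfng*, at 8.96 ± 0.765 RPKM, stood above *Nrarp*, at 7.44 ± 0.457, with no shared values, and otherwise the order of the means was as in control. *Hes6* came close to *Hey1*, with a highest *Hes6* value of 21.2 and a lowest *Hey1* value of 21.3 RPKM.

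**Figure D3:**
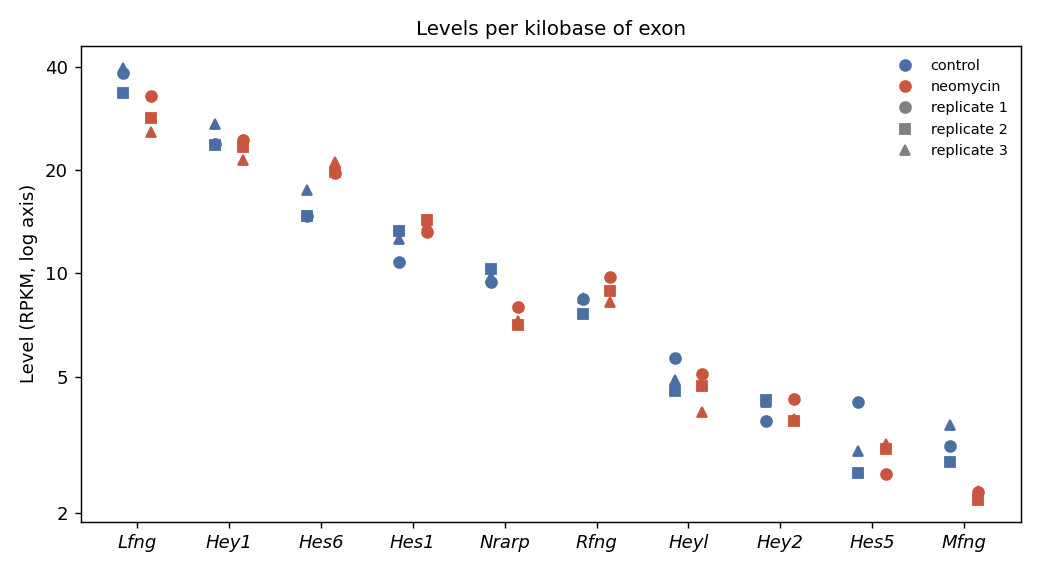
Level of each gene per kilobase of exon in RPKM on a log axis, ordered by the control mean, with control samples left and neomycin samples right of each position. *Lfng* is highest in both groups, and *Nrarp* and *Rfng* change places.

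*Hes1*, a repressor expressed in SCs and the neighboring epithelial ridge, lies on chromosome 16 of mm10 from 30064384 to 30067796. Its levels were 22.0, 27.1 and 25.6 CPM in control replicates 1, 2 and 3 and 26.8, 29.1 and 28.1 CPM after neomycin. The groups overlapped through control replicate 2, and the log2 fold change was 0.17 ± 0.09 (SE, edgeR adjusted p = 0.188). With a correction for exon length it was -0.005.

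*Hes5*, the effector most closely tied to SCs beside HCs, lies on chromosome 4 from 154960923 to 154962371. It was among the lowest of the family, with 396, 186 and 233 counts in control and 188, 248 and 233 counts after neomycin, which are 5.74, 3.57 and 4.15 CPM and 3.54, 4.20 and 4.34 CPM. Control replicate 1 stood above the other samples, which all lay between 3.54 and 4.34 CPM. The log2 fold change was -0.16 ± 0.20 (SE, edgeR adjusted p = 0.582, 95% interval -0.59 to 0.27), and 0.07 without control replicate 1. With a correction for exon length it was -0.447 (edgeR adjusted p = 0.1305). An annotated gene on the opposite strand, *Gm20421*, shares 433 bp of exon with *Hes5*, and the strand setting of the counting is not given in the sources used here.

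The Hey genes encode repressors related to Hes that also act in vessels, *Hey2* also marking pillar cells and *Heyl* being known from the contractile cells around vessels. *Hey1*, on chromosome 3 from 8663359 to 8667256, had 77.8, 77.3 and 89.3 CPM in control and 80.0, 76.0 and 69.7 CPM after neomycin. *Hey2*, on chromosome 10 from 30832359 to 30842801, had 17.1, 19.7 and 19.4 CPM in control and 19.8, 17.1 and 17.2 CPM after neomycin. *Heyl*, on chromosome 4 from 123233556 to 123249875, had 29.1, 23.2 and 24.9 CPM in control and 26.0, 24.1 and 20.2 CPM after neomycin. In each of the 3 the groups overlapped. The log2 fold changes were -0.11 for *Hey1* (standard error 0.08), -0.05 for *Hey2* (standard error 0.10) and -0.14 for *Heyl* (standard error 0.11), with adjusted p-values of 0.312, 0.717 and 0.386 (edgeR). Their 95% intervals ran from -0.29 to 0.06, from -0.27 to 0.16 and from -0.38 to 0.11, so that none reached a fold change of 1.5 in either direction.

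*Hes6* differs from the other Hes genes in that it opposes *Hes1* and is expressed in differentiating HCs. It lies on chromosome 1 from 91411483 to 91414038. Control samples had 26.7, 26.7 and 31.7 CPM and neomycin samples 35.4, 35.7 and 38.2 CPM. All neomycin samples were higher than all control samples. Groups did not overlap in 4 of the 10 genes, near the 43.5% of all genes tested for which this held. The log2 fold change was 0.36 ± 0.09 (SE, edgeR adjusted p = 0.0103). The exons of *Hes6* cover 1808 bp, and with a correction for exon length the log2 fold change was 0.16 and no longer passed the test (adjusted p = 0.136). Without control replicate 2 the adjusted p was 0.0541.

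HC markers moved in the opposite direction to *Hes6*. Over 14 markers the median log2 fold change was -1.66, 13 fell and none rose, and their summed level went from between 821.5 and 948 CPM in control to between 281.3 and 342.7 CPM. The largest falls were those of *Slc26a5*, the gene of the outer HC motor protein prestin, at -3.99, and of *Ocm*, an outer HC calcium buffer, at -3.40. Relative to the mean log2 CPM of the HC markers, *Hes6* stood at -0.07, -0.04 and 0.05 in control and at 1.86, 2.06 and 2.44 after neomycin, and the groups did not overlap (exact two-sided permutation test, p = 0.1, adjusted p = 0.18 over 9 such comparisons). That p is the smallest that 3 samples against 3 allow. *Atoh1*, the HC factor that Hes repressors hold down, was the exception among the markers. It was picked out after its values were seen, and averaged 2.32 CPM in control (SD 0.133, n = 3) and 2.24 CPM after neomycin (SD 0.380, n = 3), a log2 difference of -0.05 ± 0.22 (SE, edgeR adjusted p = 0.9005).

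*Nrarp*, an intronless gene on chromosome 2 from 25180758 to 25183339, encodes a small ankyrin repeat protein of the Notch feedback loop. Its levels were 24.3, 26.6 and 25.1 CPM in control and 20.5, 18.3 and 18.8 CPM after neomycin. Every neomycin sample lay below every control sample. The log2 fold change was -0.40 ± 0.09 (SE, edgeR adjusted p = 0.00595), the smallest p of the 10 genes. It passed the test under all 14 alternative fits, between -0.52 and -0.36. An antisense gene, *Gm38287*, shares 2051 bp of exon with *Nrarp*, so reads of the pair could be mixed if strand was not used.

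The fringes encode glycosyltransferases of the Golgi. *Lfng*, on chromosome 5 from 140607320 to 140615545, had 96.1, 84.1 and 99.7 CPM in control and 82.5, 70.9 and 64.8 CPM after neomycin, the 2 groups lying close but not overlapping. Its log2 fold change was -0.36 ± 0.10 (SE, edgeR adjusted p = 0.0147), and the adjusted p was 0.0715 without neomycin replicate 2 and 0.0671 without neomycin replicate 3. *Mfng*, on chromosome 15 from 78755882 to 78773475, had 8.94, 7.99 and 10.3 CPM in control and 6.55, 6.20 and 6.57 CPM after neomycin. The neomycin samples were all lower, and the log2 fold change was -0.49 ± 0.13 (SE, edgeR adjusted p = 0.0160). The adjusted p was 0.0525 without control replicate 3 and 0.0677 without neomycin replicate 2. *Rfng*, on chromosome 11 from 120780746 to 120784207, had 20.9, 19.0 and 21.1 CPM in control and 24.3, 22.1 and 20.5 CPM after neomycin, so that the groups overlapped (log2 fold change 0.13 ± 0.10, SE, edgeR adjusted p = 0.314).

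The balance among fringes was compared within each sample, where the scaling of the library cancels. The log2 ratio of *Lfng* to *Rfng* was 2.20, 2.15 and 2.24 in control and 1.76, 1.68 and 1.66 after neomycin, with an SD of 0.04 in control and 0.05 after neomycin. The means differed by -0.49, and the groups stood well apart (exact two-sided permutation test, p = 0.1, adjusted p = 0.233 over 7 pairs of genes). Exon lengths of the pair are 2505 and 2489 bp. As shares of the summed fringe RPKM, *Lfng* held 76.6 ± 0.297% in control and 72.0 ± 1.08% after neomycin, *Rfng* 16.8 ± 0.482% and 22.3 ± 0.513%, and *Mfng* 6.56 ± 0.356% and 5.68 ± 0.622% (SD, n = 3). The log2 ratio of *Mfng* to *Lfng* overlapped between groups, with a difference of -0.12 (exact permutation test, p = 0.4, adjusted p = 0.7).

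**Figure D4:**
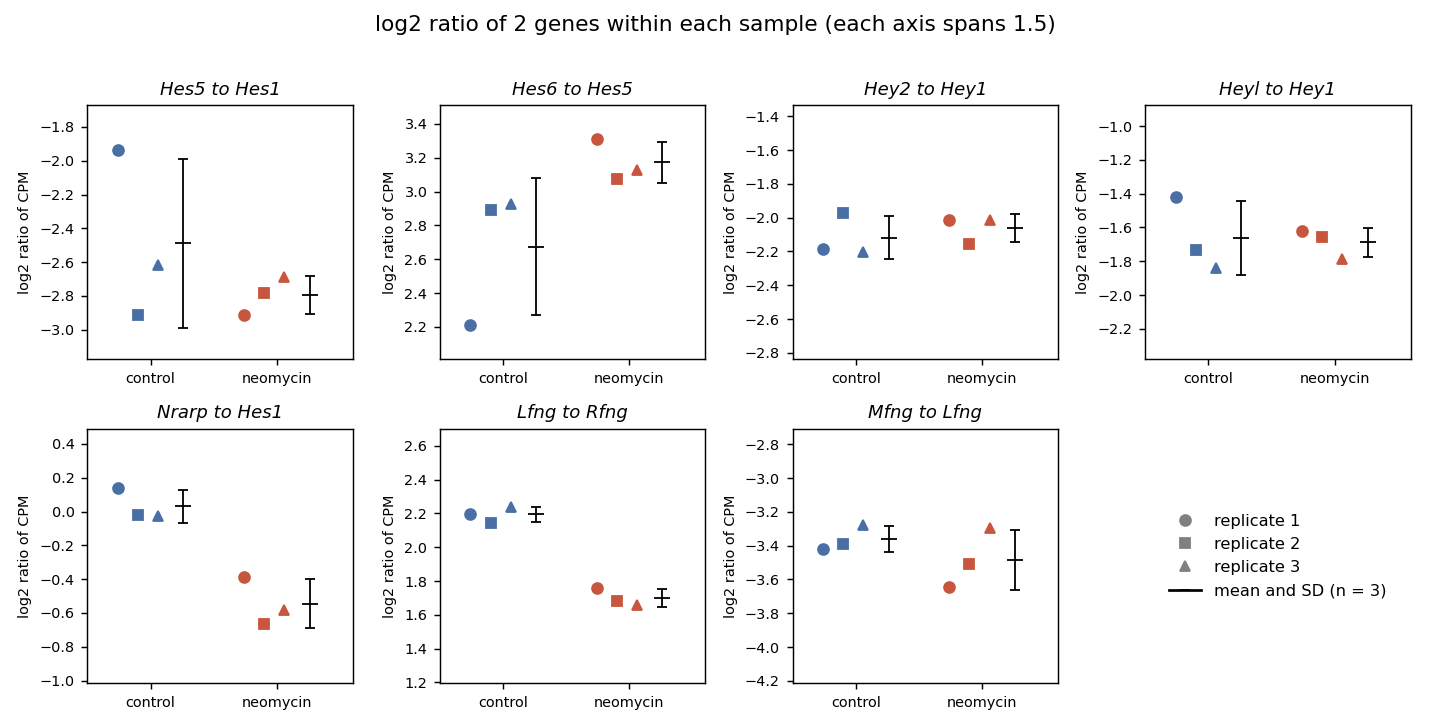
The log2 ratio of CPM of 7 pairs of genes within each sample, by group, with the mean and SD of 3 samples; every axis spans 1.5. *Lfng* to *Rfng* and *Nrarp* to *Hes1* are lower in all neomycin samples, *Hes6* to *Hes5* is higher in all of them, and the other 4 pairs overlap.

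Among the remaining pairs, that of *Nrarp* to *Hes1* was lower in every neomycin sample. The log2 ratio was 0.14, -0.02 and -0.03 in control and -0.39, -0.67 and -0.58 after neomycin, a difference of -0.58 (exact permutation test, p = 0.1, adjusted p = 0.233). The ratio of *Hes6* to *Hes5* was higher after neomycin by 0.50 on the log2 scale, with control values of 2.21, 2.89 and 2.93 and neomycin values of 3.31, 3.08 and 3.13 (exact permutation test, p = 0.1, adjusted p = 0.233). For *Hes5* to *Hes1*, *Hey2* to *Hey1* and *Heyl* to *Hey1* the groups overlapped, with differences of -0.30, 0.06 and -0.02.

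The remaining genes except *Rfng* were each set beside markers of 1 cell type in which they are known to act. *Hey1*, *Nrarp*, *Mfng* and *Heyl* were not compared with SC markers. In the SC list the median log2 fold change was 0.18, the summed level went from between 6538 and 8023 CPM in control to between 8943 and 11780 CPM, and the largest changes were falls of *Prox1* (-1.46) and *Lgr6* (-1.14). Most of that sum, and of its increase, was *Tectb*, with a mean of 4230 CPM in control and 6445 CPM after neomycin, and *S100a1*, with 1561 and 2144 CPM, both picked out after their values were seen. *Lfng* relative to the mean of the SC markers was -0.12, -0.20 and 0.06 in control and -0.31, -0.43 and -0.51 after neomycin, lower in all 3 neomycin samples (exact permutation test, p = 0.1, adjusted p = 0.18), while *Hes1*, *Hes5* and *Hey2* overlapped on this scale. Endothelial markers had a median of -1.40, with 7 of 12 lower and none higher, led by *Cldn5* (-3.40) and *Tie1* (-2.83). Their summed level stayed between 324.4 and 365.1 CPM in control and 309.1 and 362.3 CPM after neomycin, since *Emcn*, picked out after its values were seen, made up most of it, at 252 CPM in control and 273 after neomycin. Relative to the mean of these markers, *Hey1*, *Nrarp* and *Mfng* were higher in all neomycin samples, by 1.27, 0.99 and 0.90 (exact permutation test, p = 0.1 each, adjusted p = 0.18). Their own log2 fold changes were -0.11, -0.40 and -0.49, so that none rose and the marker mean fell further than each of them. In the list for contractile cells around vessels the median was -0.38, 3 of 10 fell and 1 rose, with *Kcnj8* at -1.58 and *Abcc9* at -1.28, and the summed level went from between 203.8 and 228.1 CPM to between 176.2 and 195.8 CPM. Relative to the mean of this list *Heyl* differed by 0.33, with overlapping groups (exact permutation test, p = 0.3, adjusted p = 0.386). Neuronal markers had a median of -0.72, with 4 of 10 lower and 1 higher (*Nefh* -1.21, with overlapping groups, and *Nefl* -1.15). Those of Schwann cells and glia had 0.007, with 2 of 10 lower and 1 higher (*Erbb3* -0.90, *S100b* 0.88). Macrophage markers had 0.53, with 5 of 10 higher and none lower (*Tyrobp* 0.93, *C1qc* 0.63). Those of mesenchyme had -0.22, with 3 of 9 lower and 2 higher (*Col1a1* -1.20, *Dcn* 0.64). Only *Higd1b*, of the contractile cell list, had no sample above 3 counts in a group, after neomycin. The part of these cell types in the changes of *Nrarp*, *Lfng*, *Mfng* and *Hes6* was not tested.

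Other Notch pathway genes were read from the same fit, 64 tested of 67 listed. At an adjusted p-value under 0.05 (edgeR) 25 were lower and 4 higher, with a median log2 fold change of -0.11, and 8 passed a fold change of 1.5, all lower. The shares over all genes tested were 16.1% lower, 12.9% higher and 6.60% lower with that fold. Leaving out single samples moved the 29 to between 12 and 33, and it was 17 without control replicate 1, 13 without control replicate 2, 12 without neomycin replicate 2 and 16 without neomycin replicate 3. Of 8 genes listed as ligands, which need not all activate Notch, 6 fell. *Dll4*, an endothelial ligand, had a log2 fold change of -1.89, *Dner* of -1.19, *Dll1* of -0.80, *Dlk2* of -0.73, *Jag2* of -0.41 and *Jag1* of -0.31. Among 4 receptors, *Notch3* had a log2 fold change of -0.61 and *Notch1* of -0.32, both past the test, while *Notch4* and *Notch2* had -0.42 (adjusted p = 0.0562) and 0.04 (adjusted p = 0.767). Of the 14 genes of endocytosis and turnover 4 fell and none rose, with *Mib1*, a ubiquitin ligase of Notch ligands, at -1.28 and *Nedd4*, *Itch* and *Numb* between -0.30 and -0.23.

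In the nucleus, 9 of 22 members of the RBPJ complex and its corepressors fell and 3 rose. *Spen*, a corepressor bound by RBPJ, had -0.89, the acetyltransferases *Crebbp* and *Ep300* had -0.86 and -0.51, and *Ctbp2* and *Ncor1*, both corepressors, had -0.44 and -0.39. *Rbpj* itself, picked out after its values were seen, averaged 118 CPM in control (SD 8.22, n = 3) and 100.1 CPM after neomycin (SD 3.33, n = 3), a log2 difference of -0.23 (edgeR adjusted p = 0.0312). For 13 genes of receptor maturation and cleavage 3 were lower and 1 higher, among them *Furin* at -0.27, *Eogt* at -0.36 and *Psenen* at 0.32. The 4 of 13 here and the 4 of 14 for endocytosis and turnover are near the 29.0% of all genes tested.

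**Figure D5:**
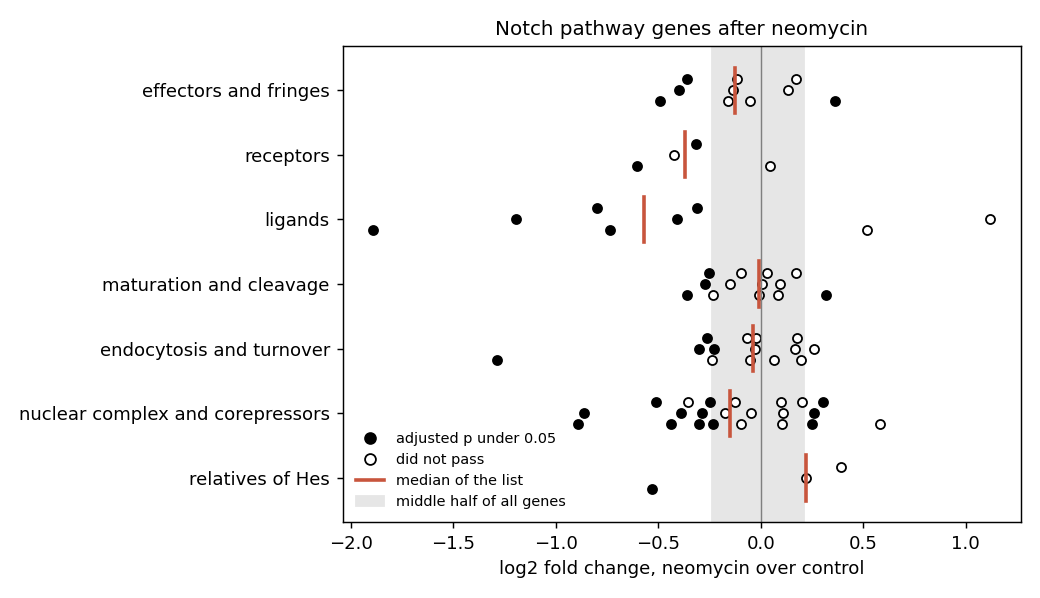
The log2 fold changes after neomycin of the 10 genes and of 6 lists of other Notch pathway genes; filled points had an adjusted p-value under 0.05, red bars are medians of lists and the grey band runs from the lower to the upper quartile of all genes tested. The listed ligands spread furthest, from -1.89 to 1.12, and the 10 effectors and fringes lie between -0.49 and 0.36. The upper end is *Dll3*, picked out after its values were seen, with 10 to 55 counts a sample. It did not pass the test (edgeR adjusted p = 0.091).

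The genes with the most similar profile over the 6 samples were found by Pearson r of log2 CPM among 14035 genes with a mean of at least 1 CPM, as a description. For *Nrarp* they were *Tom1*, *Atp2a2* and *Osbpl11* (r = 0.998, 0.997 and 0.997), for *Hes6* *Pex6*, *Akr1a1* and *Praf2* (r = 0.999, 0.998 and 0.997), for *Lfng* *Sugp2*, *Tmem39b* and *Tex261* (r = 0.996, 0.994 and 0.989) and for *Mfng* *Akt1*, *Stc1* and *Arhgef16* (r = 0.996, 0.988 and 0.988). The points share their libraries and the split between groups.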

How the data were processed

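RNA-seq libraries were made from 6 pools of cochlear explants, 3 per group. The authors called bases with Casava 1.8, trimmed reads with Trimmomatic 0.23, aligned them to UCSC mm10 with HISAT2 and counted them with HTSeq on the UCSC mm10 annotation. The authors deposited raw counts per gene symbol, without normalization. The handling of strand and of reads matching several places is not given in the sources used here, which can shift reads between overlapping or similar genes.

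From these counts, TMM scaling, filterByExpr and the quasi-likelihood test of edgeR 4.0.16 (R 4.3.3) compared neomycin with control over 15988 genes, with Benjamini-Hochberg adjustment. Genes passed at an adjusted p of 0.05, with a fold change over 1.5 where stated. Standard errors were taken from the F statistic of each gene and 95% intervals from the degrees of freedom of the fit. Log2 CPM used a prior count of 2. Exon lengths and positions came from GENCODE vM21, on the same build, which matched 23384 symbols directly and 669 through an older symbol. Ratios within samples were tested by exact permutation. Alternatives were DESeq2 1.42.0, limma-voom (limma 3.58.1), other scalings and filters, a replicate block, leaving out single samples, and a lowess correction (span 0.3) for exon length, known for 99.2% of genes tested. The code was tested on simulated data. Figures used matplotlib 3.10.9. The members and lists were chosen with earlier results of these data known. All members are named. Other Notch genes are named if called with the fold threshold, with up to 3 more a list, those of smallest p among the remaining genes. Markers are named if among the 2 largest changes of their list with an adjusted p under 0.05. Exceptions are said to be so.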

Additional observations from a re-analysis of the deposited data

How the results depend on the processing

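Under 14 other fits the log2 fold changes of *Nrarp*, *Lfng*, *Mfng* and *Hes6* kept their sign. *Nrarp* passed in 14 of them and the other three in 12 each. Those of *Hes1* (-0.005 with the exon length correction) and *Hes5* (0.07 without control replicate 1, from -0.29 to 0.068 over single samples left out) changed sign, in genes that did not pass the test. With the exon length correction *Hes5* moved the other way, to -0.447. The number of the 10 genes past an adjusted p-value of 0.05 was 4 and ranged from 2 to 4 when single samples were left out. With the fold change of 1.5 it was 0, became 1 (*Mfng*) with the exon length correction, where the threshold was just met, and is 4 with no fold threshold. Over all genes the number called was 1413, against 4629 with no fold threshold and 686 at a fold change over 2. The 29 other Notch pathway genes ranged from 12 to 33 over single samples left out, and the cause was not tested. Deviations from group means of same-numbered samples correlated at 0.17, 0.03 and 0.09, and those of differently numbered samples at between -0.13 and 0.03. Each sample except control replicate 2 correlated best with the sample of its own number. Control replicate 2 had 0.032 with neomycin replicate 3 and 0.026 with neomycin replicate 2. Whether the replicate numbers pair the samples was not tested. With a replicate block 4 of the 10 genes and 39 other Notch genes passed. Ratios of *Heyl* to *Hey1* changed sign without control replicate 1 (0.10) or neomycin replicate 3 (0.03), over a range from -0.11 to 0.10. Relative to SC markers *Hes5* turned to 0.057 and 0.035 without control or neomycin replicate 1, over a range from -0.23, and *Hey2* to 0.035, 0.029 and 0.012 without control replicates 2 or 3 or neomycin replicate 2, from -0.12. These values lay within the spread of the replicates. *Hes5* and *Mfng* had the lowest counts of the 10 genes, with 186 to 617 a sample, and whether depth limits them was not tested.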

Other observations

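Some Hes relatives outside the 10 had few counts. *Hes2* had 0 to 4 counts a sample, *Hes3* 0 to 9 and *Helt* 0 to 12, and none of the 3 was tested. *Hes7*, known from the segmentation clock, had 27, 32 and 44 counts in control and 50, 33 and 45 after neomycin, with overlapping groups (adjusted p = 0.495, edgeR). Of the more distant relatives, *Bhlhe40* fell from 153 ± 21.2 to 106 ± 10.3 CPM (SD, n = 3; adjusted p = 0.00308, edgeR), while *Bhlhe41* had 84.8 ± 8.89 CPM in control and 98.9 ± 7.28 CPM after neomycin (adjusted p = 0.0778, edgeR).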
